A study of Sus scrofa with 54 samples.

Results

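The outdoor sow-reared (OUT) piglets killed at day 56 were compared with the OUT piglets killed at day 28, and the question was how the ileum changed over the 4 weeks that followed weaning. The 12 arrays were taken by the group and day in their labels, 6 at day 56 and 6 at day 28, out of 54 arrays in the whole series. Each array held RNA of a separate piglet from a piece of ileum cut at 75% of the length from the pyloric sphincter, hybridised to the GeneChip Porcine Genome Array. All piglets came from Large White × Landrace sows inseminated by the same boar. OUT piglets at day 56 had suckled outdoor-housed sows, were weaned at day 28 and had creep feed ad libitum from day 29. OUT piglets at day 28 had suckled outdoor-housed sows up to the day of weaning. The same days were available for 6 piglets each of indoor sow-reared animals (IN) and of isolator-reared animals (IR). The IR piglets were fed milk replacer up to day 28 and dosed every day with antibiotics. Age, weaning and the change of diet fell together and cannot be told apart in these samples. Piglets of both days may be littermates, and no label ties an array to a litter.

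The suckling ileum takes up milk fat, lactose products and whole milk proteins, and after weaning it has to deal with solid feed rich in starch and plant material. Galactose, which comes from lactose, is converted to glucose along a short pathway that includes galactokinase and GALT, while fructose enters through its own carrier. The distal ileum is also the site where bile acids are recovered. Over the same weeks the young gut fills with T cells and with plasma cells, whose dimeric IgA is held together by the J chain and is carried across the epithelium by the polymeric immunoglobulin receptor.

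Values are log2 signals, so that a log2 fold change of 1 is a doubling. A probeset was called when its unadjusted limma p was under 0.01 and its fold change at least 2, and each change is given with its p after Benjamini-Hochberg adjustment over the whole table. Of 23999 probesets 628 were called (2.62%), 318 higher at day 56 (1.33%) and 310 lower (1.29%). Of the 10069 probesets with 1 platform symbol 72 were called higher and 197 lower. An adjusted p under 0.05 was reached by 794 probesets (3.31%), 418 of them higher (1.74%) and 376 lower (1.57%), and 370 reached it with a doubling or halving of signal (1.54%). An unadjusted p under 0.05 was reached by 4758 (19.8%). The 6 day 56 values did not overlap the 6 day 28 values in 762 probesets (3.18%), of which 256 were also called (1.07%). The median log2 fold change over all probesets was 0.01. Array medians lay between 4.01 and 4.21 over the 12 arrays, and the difference between 3' and 5' probesets of GAPDH was 0.25 to 0.86 at day 56 and 0.16 to 0.81 at day 28 (exact two-sided permutation p = 0.18). Of 5 measured enterocyte markers VIL1, ANPEP, FABP2 and APOA4 averaged 12.32 to 13.79 at day 56 and 12.30 to 13.49 at day 28 and were not called, while FABP6 averaged 13.53 at day 56 and 11.07 at day 28 and was called.

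The arrays of day 28 piglets 1 and 2 stood apart. They correlated at 0.980 with each other and at 0.946 to 0.966 with the other 4 day 28 arrays, which correlated at 0.978 to 0.987 among themselves. With day 28 piglets 1 and 2 left out, 877 probesets were called, 442 of them shared with the 628. This omission was chosen after the data were seen. P-values and calls under it show how results depend on these 2 piglets and are no independent tests. Values below are over all 12 piglets unless the omission of these 2 is named.

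**Figure D1:**
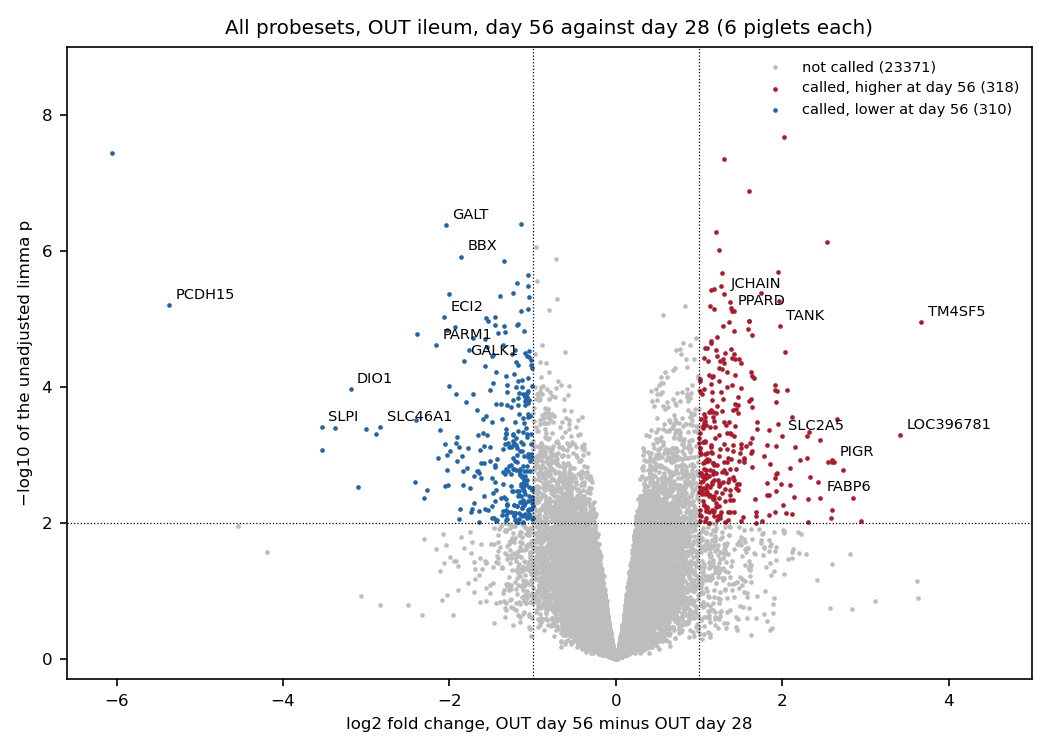
Each point is 1 of 23999 probesets. The x axis is the log2 fold change, OUT day 56 minus OUT day 28, and the y axis is −log10 of the unadjusted limma p, with dotted lines at the limits of a call. The 318 called higher (red) and 310 called lower (blue) are near in number, but the 2 steepest changes are falls. Among called probesets with 1 platform symbol 72 are higher and 197 lower.

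The steepest fitted change of the array was a fall in a probeset with no gene name, Ssc.21343.1.S1_at. It lay between 2.53 and 3.24 (median 2.86) at day 56, against 7.78 to 10.62 (median 8.38) at day 28, a log2 fold change of -6.05 ± 0.50 (SE; adjusted p = 0.00035). No day 56 piglet came near the lowest day 28 piglet. The next was the probeset that the study annotates as PCDH15, a protocadherin best known from the sensory hair cells of the inner ear. It lay between 2.66 and 6.83 (median 3.69) at day 56, against 7.60 to 10.67 (median 9.89) at day 28, and the log2 fold change was -5.36 ± 0.71 (SE; adjusted p = 0.00448). The day 56 and day 28 piglets did not overlap. The day 56 values of the unnamed probeset all lay under 4, the limit used to mark dim signals, and so did the day 56 median of PCDH15, so the size of both falls rests on dim signals. Both probesets were picked after their values were seen, and the name PCDH15 is not in the platform annotation.

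Among genes named by the platform the deepest called falls were those of SLPI and PLBD1. SLPI, a secreted inhibitor of leukocyte proteases, lay between 7.06 and 11.49 (median 8.86) at day 56, against 11.34 to 13.61 (median 12.45) at day 28. Its log2 fold change was -3.53 ± 0.73 (SE; adjusted p = 0.0265), with 1 day 56 piglet inside the day 28 range. PLBD1, a phospholipase B-like protein, lay between 4.26 and 5.32 (median 4.91) at day 56, against 5.71 to 10.80 (median 8.34) at day 28, a log2 fold change of -3.53 ± 0.80 (SE; adjusted p = 0.0375). Of its 4 probesets 2 were called, the other of these at -3.38, and the smallest change among the 4 was -0.07. The PLBD1 groups did not overlap, but day 28 piglets 1 and 2 were far above the other 4 at 10.69 and 10.80, and without them the log2 fold change was -2.34 with an unadjusted limma p of 0.000953.

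The galactose genes GALT and GALK1 fell, with little spread between piglets for GALT. GALT, which transfers the uridyl group to galactose phosphate, lay between 4.46 and 5.17 (median 4.82) at day 56, against 6.43 to 7.60 (median 6.75) at day 28. The log2 fold change was -2.04 ± 0.21 (SE; adjusted p = 0.00166), and 2 more GALT probesets fell by 2.02 and 1.55 on the log2 scale. All 3 GALT probesets separated the 6 day 56 piglets from the 6 day 28 piglets. GALK1, the galactokinase, lay between 5.17 and 5.88 (median 5.59) at day 56, against 6.50 to 8.15 (median 7.46) at day 28, a log2 fold change of -1.83 ± 0.29 (SE; adjusted p = 0.00919). No piglets overlapped in GALK1. GALK1 and the further GALT probesets were picked after their values were seen.

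The fructose carrier went the other way. SLC2A5 lay between 8.39 and 10.03 (median 9.13) at day 56, against 5.55 to 8.36 (median 7.39) at day 28, a log2 fold change of 1.99 ± 0.43 (SE; adjusted p = 0.0305) with no overlap between the days. SLC2A5 was the only called member of 13 measured sugar and amino acid transporters (7.69%, against 1.33% of all probesets called higher). Their median log2 fold change was 0.35, or 0.17 without day 28 piglets 1 and 2. The sodium-glucose cotransporter SLC5A1 had a log2 fold change of 0.82 and SLC2A2, the basolateral glucose carrier, one of -1.47, and neither was called. SLC5A1 stood at 1.08 and met the call when day 28 piglets 1 and 2 were left out. TAS1R3, a subunit of the sweet and umami taste receptors that was picked after its values were seen, had low signals of 2.44 to 3.75 at day 56, against 4.29 to 4.75 at day 28, and fell by 1.45 on the log2 scale (adjusted p = 0.00508).

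**Figure D2:**
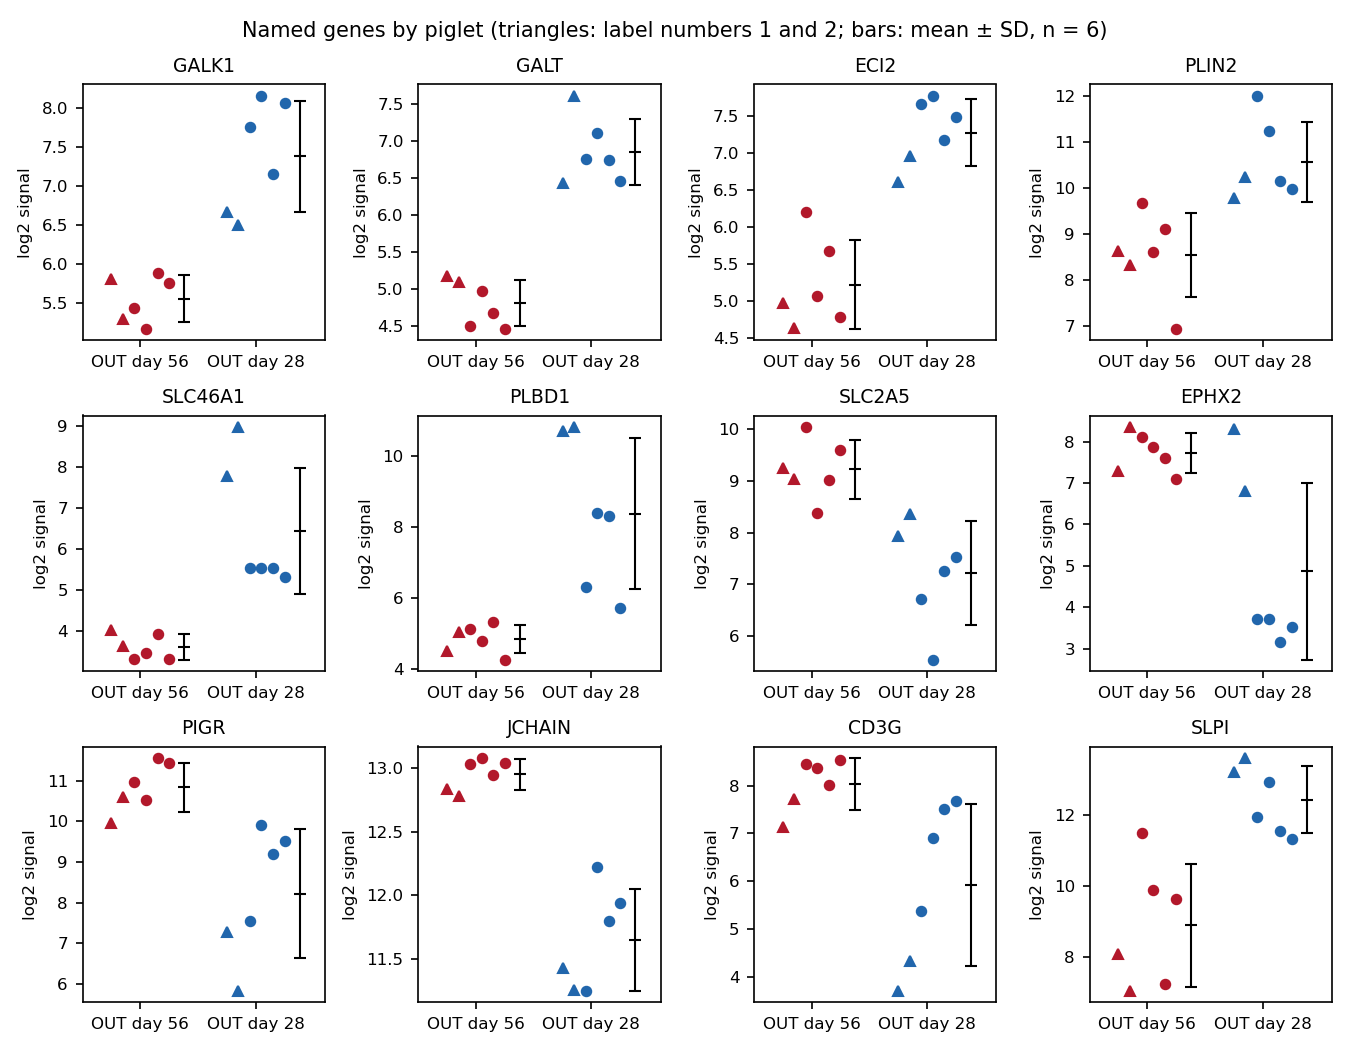
Each panel shows the log2 signal of 1 gene in 6 OUT piglets at day 56 (red) and 6 at day 28 (blue), with the mean ± SD (n = 6) at the side, and triangles for the piglets labelled 1 and 2. GALK1, GALT, ECI2 and PLIN2 lie lower at day 56 without overlap, and SLC2A5, PIGR and JCHAIN lie higher without overlap. In EPHX2, PLBD1 and SLC46A1 day 28 piglets 1 and 2 lie well above the other 4, and in CD3G below them.

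Several genes of fatty acid use fell. Of 28 measured genes of fatty acid oxidation and ketone synthesis 4 were called lower (14.3%, against 1.29% of all probesets) and none higher, and the list median was -0.34, against 0.01 for all probesets. The lists were chosen with earlier results of these data known and hold named genes only. Their shares beside those of all probesets are descriptions and no tests, here and for the other lists. ECI2, an isomerase needed to oxidise unsaturated fatty acids, lay between 4.63 and 6.20 (median 5.02) at day 56, against 6.61 to 7.77 (median 7.34) at day 28, a log2 fold change of -2.06 ± 0.28 (SE; adjusted p = 0.00508). Its second probeset had a log2 fold change of -0.22 and was not called. The other 3 form or carry carnitine esters of fatty acids or acyl groups: CRAT fell by 1.33 on the log2 scale (adjusted p = 0.00608), SLC25A20 by 1.33 (adjusted p = 0.0525) and CPT1A by 1.1 (adjusted p = 0.0735). ECI2 and CRAT did not overlap between the days, while SLC25A20 and CPT1A did. The CPT1A call was lost when day 28 piglet 3, day 56 piglet 1 or day 56 piglet 6 was left out, with a log2 fold change between -1.29 and -0.95 over all 12 omissions. ETFDH, which passes electrons from fatty acid oxidation to the respiratory chain, had an adjusted p of 0.0247 but a log2 fold change of -0.85, short of a call. ACADVL, the very long chain acyl-CoA dehydrogenase, fell by 1.64 on the log2 scale in 1 of 2 probesets (adjusted p = 0.0523) and had -0.58 in the other, brighter one, which stands for it in the list and was not called, and the fatty acid receptor PPARD rose by 1.39 in 1 of 3 probesets (adjusted p = 0.00448). CPT1A, ACADVL and PPARD were picked after their values were seen.

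Fat uptake had a single call. Of 21 measured genes of fat absorption and lipoprotein assembly 1 was called lower (4.76%, against 1.29% of all probesets), and the list median was -0.32. PLIN2, the coat protein of lipid droplets, lay between 6.94 and 9.68 (median 8.61) at day 56, against 9.79 to 12 (median 10.2) at day 28, a log2 fold change of -2.03 ± 0.47 (SE; adjusted p = 0.0406). MTTP, which loads lipid onto apolipoprotein B, had a log2 fold change of -0.73 (adjusted p = 0.12). GPD1, which makes glycerol phosphate for fat synthesis and was listed with adipocyte genes, fell by 1.93 (adjusted p = 0.0152). The defining fat cell genes ADIPOQ and LEP averaged 2.73 and 2.40 at day 56 and 2.90 and 2.27 at day 28. Single piglets were higher, as ADIPOQ reached 5.38 at day 56 and 7.35 at day 28. The mean of 10 adipocyte genes was highest in day 28 piglet 1, at 6.785. Without day 28 piglets 1 and 2 GPD1 stood at -1.61, and the part of fat tissue in its fall was not tested. Oxidative phosphorylation had 57 measured members and none called, with a list median of -0.21, or -0.39 without day 28 piglets 1 and 2. Of 16 cholesterol synthesis and uptake genes, NSDHL alone was called (6.25%, against 1.29% of all probesets called lower). It was lower by 1.88 (adjusted p = 0.108). Its call was lost with any of 9 piglets left out (day 28 piglets 3 to 6 and every day 56 piglet but the third), at log2 fold changes between -2.21 and -1.61. The median of the cholesterol list was 0.19 over all 12 piglets and -0.53 without day 28 piglets 1 and 2.

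Bile acid and organic anion genes moved in both directions. FABP6, the ileal bile acid binding protein, lay between 12.88 and 14.34 (median 13.58) at day 56, against 8.58 to 13.81 (median 11) at day 28, a log2 fold change of 2.46 ± 0.70 (SE; adjusted p = 0.0783). The days overlapped, and the call was lost without day 28 piglet 3, day 28 piglet 6 or day 56 piglet 3, at log2 fold changes between 1.96 and 3.0 over the 12 omissions. ABCC2, an apical pump for conjugated compounds, lay between 3.63 and 7.37 (median 5.72) at day 56, against 7.69 to 9.34 (median 8.91) at day 28, a log2 fold change of -3.0 ± 0.63 (SE; adjusted p = 0.0271). The ABCC2 groups did not overlap. These were the 2 calls among 6 measured genes of bile acid uptake and signalling (33.3%, against 2.62% of all probesets).

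SLC46A1, the proton-coupled folate transporter, lay between 3.31 and 4.03 (median 3.55) at day 56, against 5.31 to 8.97 (median 5.54) at day 28, a log2 fold change of -2.83 ± 0.59 (SE; adjusted p = 0.0265). No piglets overlapped, and without day 28 piglets 1 and 2 the log2 fold change was -1.87 with an unadjusted limma p of 3.92e-07. The vitamin C transporters SLC23A1 and SLC23A2, picked after their values were seen, fell by 1.34 (adjusted p = 0.0354) and 1.24 (adjusted p = 0.0694) on the log2 scale. SLC39A14, an importer of zinc, iron and manganese, fell by 1.99 (adjusted p = 0.0383). Its second probeset fell by 1.46 (adjusted p = 0.106), a call that was lost without day 28 piglet 1, 2 or 3 or day 56 piglet 3, 4, 5 or 6 (-1.69 to -1.21 over the 12 omissions) and stood at -0.97 without day 28 piglets 1 and 2. SLC11A2, the divalent metal transporter of iron uptake, fell by 1.16 (adjusted p = 0.0532). It was the only call among 17 listed genes of metal handling (5.88%, against 1.29% of all probesets called lower). That list does not hold SLC39A14, and its median was -0.10. Without day 28 piglets 1 and 2 the log2 fold change of SLC11A2 was -1.08 with an unadjusted limma p of 0.0111. RBP4, the retinol carrier of plasma, fell by 1.22 (adjusted p = 0.0243). It was the only call of 8 retinoid genes (12.5%, against 1.29% of all probesets called lower), whose median was 0.01. These medians were 0.04 and -0.09 without day 28 piglets 1 and 2.

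Of 26 genes of drug and steroid metabolism 1 was called higher and 1 lower (7.69%, against 2.62% of all probesets). EPHX2, the soluble epoxide hydrolase, lay between 7.10 and 8.35 (median 7.73) at day 56, against 3.17 to 8.29 (median 3.71) at day 28, a log2 fold change of 2.85 ± 0.81 (SE; adjusted p = 0.0783). Day 28 piglets 1 and 2 had 8.29 and 6.82 and the other 4 had 3.17 to 3.71. Without those 2 the log2 fold change was 4.19 with an unadjusted limma p of 6.84e-09. That p is no valid test, since the piglets removed held the 2 highest day 28 values of EPHX2. The call over all piglets was lost when any of day 28 piglets 3 to 6 or day 56 piglet 2 was left out, with a highest limma p of 0.0112. DHRS4, a carbonyl reductase, fell by 1.48 on the log2 scale (adjusted p = 0.0728). PCK1, the gluconeogenic enzyme, and CYP3A29, a pig cytochrome, had log2 fold changes of 2.02 and 1.67 and were not called over all piglets. PCK1 stood at 3.29 and CYP3A29 at 2.66 when day 28 piglets 1 and 2 were left out, and both then met the call. PCK2, listed with PCK1 under gluconeogenesis and fructose use, had -2.08 at its brightest probeset, which was not called. That probeset stood at -1.31 without day 28 piglets 1 and 2. Of the 3 PCK2 probesets 1 was called lower, a call lost without day 28 piglet 4. None of the 8 measured genes of that list was called, with a median of -0.09, or 0.42 without day 28 piglets 1 and 2. TM4SF5, a membrane protein of the tetraspanin-like family, showed the largest rise of any named gene. It lay between 7.66 and 10.91 (median 8.87) at day 56, against 4.74 to 6.11 (median 5.33) at day 28, a log2 fold change of 3.67 ± 0.52 (SE; adjusted p = 0.00541) without overlap, and its second probeset rose by 2.60.

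Other falls among the 20 largest were spread over metabolism and the epithelium. DIO1, a thyroid hormone deiodinase, lay between 2.62 and 4.5 (median 2.96) at day 56, against 5.03 to 7.96 (median 6.69) at day 28, a log2 fold change of -3.19 ± 0.57 (SE; adjusted p = 0.0149). GLYCTK, the glycerate kinase, fell by 2.88 (adjusted p = 0.0295) and FAH, the last enzyme of tyrosine breakdown, by 1.84 (adjusted p = 0.0409). DIO1 and FAH did not overlap between the days, and in GLYCTK 1 day 56 piglet at 7.80 lay inside the day 28 range. PARM1 fell by 2.16 (adjusted p = 0.00777), the claudin CLDN10 by 2.06 (adjusted p = 0.0353), the phospholipase PLA1A by 2.27 (adjusted p = 0.0686), the endosomal chloride exchanger CLCN5 by 2.06 (adjusted p = 0.0642) and the lysosomal carrier SLC46A3 by 1.84 (adjusted p = 0.0505). Without day 28 piglets 1 and 2 the calls of PLA1A and CLCN5 were lost, at log2 fold changes of -1.89 and -1.44. BBX, an HMG-box protein, fell by 1.86 in 1 probeset (adjusted p = 0.00262) and rose by 1.24 in another (adjusted p = 0.0297), so that no direction can be given for the gene. A probeset of RACK1, a ribosomal scaffold protein picked after its values were seen, had a log2 fold change of -4.53 (adjusted p = 0.121) and the other, far brighter one 0.11. The first of these stood at -2.40 when day 28 piglets 1 and 2 were left out.

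Genes of IgA secretion rose. PIGR, the receptor that carries IgA and IgM into the gut lumen, lay between 9.96 and 11.55 (median 10.77) at day 56, against 5.83 to 9.91 (median 8.37) at day 28, a log2 fold change of 2.62 ± 0.63 (SE; adjusted p = 0.0445), and its second probeset one of 2.43, or 1.64 without day 28 piglets 1 and 2, when that call was lost. JCHAIN, which joins IgA monomers, lay between 12.78 and 13.08 (median 12.99) at day 56, against 11.25 to 12.22 (median 11.62) at day 28, a log2 fold change of 1.30 ± 0.17 (SE; adjusted p = 0.00396). Neither PIGR nor JCHAIN overlapped between the days. TNFRSF17, a survival receptor of plasma cells, rose by 1.54 (adjusted p = 0.0426) and its ligand TNFSF13, also called APRIL, by 1.08 (adjusted p = 0.0678). The call of TNFSF13 was lost without day 28 piglet 3 or day 56 piglet 3 or 6, at log2 fold changes of 0.93 to 1.27 over the 12 omissions. LOC396781, which RefSeq gives the synonym IGHG, lay between 10.36 and 13.63 (median 11.75) at day 56, against 6.59 to 10.69 (median 7.83) at day 28, a log2 fold change of 3.42 ± 0.73 (SE; adjusted p = 0.0298). The probeset that the study annotates as IGHA2 rose by 1.51 (adjusted p = 0.0351). Of 13 measured plasma cell and IgA transport genes 3 were called, all higher (23.1%, against 1.33% of all probesets). The list median was 0.02, or 0.41 without day 28 piglets 1 and 2, and the other 10 were not called. RNA came from whole tissue, in which more cells of a type and more RNA per cell cannot be told apart.

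T cell genes lay above 0 in every one of the 21 measured members, with a median log2 fold change of 1.05. Of these members 2 were called, both higher (9.52%, against 1.33% of all probesets). The mean signal of 11 of the 21 was under 4, so the direction of these 11 rests on dim signals. CCR9, the chemokine receptor of gut-homing lymphocytes, lay between 5.68 and 8.93 (median 7.70) at day 56, against 3.77 to 6.39 (median 5.39) at day 28, a log2 fold change of 2.30 ± 0.54 (SE; adjusted p = 0.0422). CD3G, a chain of the T cell receptor complex, lay between 7.12 and 8.54 (median 8.19) at day 56, against 3.70 to 7.68 (median 6.14) at day 28, a log2 fold change of 2.12 ± 0.66 (SE; adjusted p = 0.1). Both overlapped between the days. Day 28 piglets 1 and 2 had the lowest CD3G values of all, 3.70 and 4.32. Without them the log2 fold change of CD3G was 1.17 with an unadjusted limma p of 0.0247, the call was lost, and the median of the T cell list was 0.66. The CD3G call was also lost with any 1 of 8 piglets left out (day 28 piglets 1 to 3 and day 56 piglets 2 to 6), at log2 fold changes between 1.68 and 2.47. CD3D and CD3E both had log2 fold changes of 1.84, CD8A one of 1.91 and CD2 one of 1.52, and none of these 4, which are defining T cell markers, was called.

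The mean of the T cell list was 4.70 to 6.50 in day 56 piglets and 3.44 to 5.30 in day 28 piglets, so the ranges overlapped. The kinase LCK rose by 2.01 on the log2 scale (adjusted p = 0.0885), and its call was lost without day 28 piglet 1, day 28 piglet 2 or day 56 piglet 2, at log2 fold changes between 1.5 and 2.26 over the 12 omissions, and it was also lost without both of these day 28 piglets, with an unadjusted limma p of 0.0364. The 2 probesets that the study annotates as the T cell receptor alpha chain, a name it picked on the same arrays, rose by 2.34 (adjusted p = 0.0562) and 2.31 (adjusted p = 0.114). Both calls were lost when day 28 piglets 1 and 2 were left out, at 1.75 and 2.12. The second was also lost without any 1 of 9 piglets (day 28 piglets 1 to 4 or 6 and day 56 piglets 3 to 6), at 1.90 to 2.87 over the 12 omissions. General leukocyte genes of the rule also rose: the tetraspanin CD53 by 2.45 (adjusted p = 0.0325), the actin bundler LCP1 by 1.85 (adjusted p = 0.0461), PLEK by 1.49 (adjusted p = 0.0396), and the Rac regulators ELMO1 by 2.22 (adjusted p = 0.0432) and ARHGEF6 by 1.48 (adjusted p = 0.0627). Without day 28 piglets 1 and 2 the calls of LCP1 and ARHGEF6 were lost, at log2 fold changes of 1.51 and 1.22. Of these genes CD53 alone did not overlap between the days, at 5.06 to 7.63 (median 6.39) in day 56 piglets and 2.58 to 4.93 (median 3.88) in day 28 piglets. TANK, an adaptor of TRAF signalling, lay between 7.37 and 8.49 (median 8.22) at day 56, against 5.25 to 6.83 (median 6.08) at day 28, a log2 fold change of 1.97 ± 0.28 (SE; adjusted p = 0.00549).

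B cell genes followed single piglets more than the day. The mean of the 10 measured B cell and germinal centre genes was 7.94 and 8.58 in day 56 piglets 2 and 5 and 4.94 to 5.19 in the other 4, and at day 28 it was 7.30 in piglet 6 and 4.66 to 5.13 in the other 5. None of the 10 was called, with a list median of 0.95, or 0.52 without day 28 piglets 1 and 2. CD79B, the only measured one of 5 defining B cell markers, ranged from 2.77 to 10.59 at day 56 and from 2.38 to 8.02 at day 28. AFF3, a transcription factor of lymphoid cells, rose by 2.14 (adjusted p = 0.0774), and its call was lost without day 28 piglet 1 or 3 or day 56 piglet 2, with a highest limma p of 0.0102, and without day 28 piglets 1 and 2 it stood at 1.90. The mean of the T cell list was also highest in day 56 piglet 5 and day 28 piglet 6, at 6.50 and 5.30, and the part of the B cell genes' level in the T cell values was not tested.

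Of 22 measured genes of mucosal defence 1 was called higher and 1 lower (9.09%, against 2.62% of all probesets), the latter SLPI. LBP, which hands bacterial lipopolysaccharide to its receptor, lay between 6.14 and 8.60 (median 7.17) at day 56, against 8.56 to 10.55 (median 8.86) at day 28, a log2 fold change of -1.91 ± 0.41 (SE; adjusted p = 0.0309). TOLLIP, an inhibitor of Toll-like receptor signalling, fell by 1.1 (adjusted p = 0.102). TOLLIP and LBP were the 2 calls among 17 genes of bacterial sensing (11.8%, both lower, against 1.29% of all probesets). The epithelial oxidase DUOX2 rose by 1.41 (adjusted p = 0.0819) and CD163, a scavenger receptor of macrophages, fell by 1.13 in 1 of 2 probesets (adjusted p = 0.092) and had 0.43 in the other, so that no direction can be given for CD163. The calls of these last 3 were not stable. TOLLIP lost its call without day 28 piglet 1, 2, 4 or 6 or day 56 piglet 2, 3 or 4 (log2 fold change -1.30 to -0.90 over the 12 omissions), DUOX2 without day 28 piglet 2 or 6 or day 56 piglet 3, 4 or 6 (1.17 to 1.69), and CD163 without day 28 piglet 4, 5 or 6 or day 56 piglet 1, 3, 4 or 5 (-1.34 to -0.83). Without day 28 piglets 1 and 2 together TOLLIP stood at -0.84 and DUOX2 at 1.23, both without a call. None of 28 measured interferon-induced genes was called, with a median of 0.24, nor any of 13 class II and 16 class I presentation genes, with medians of 0.47 and 0.24. The class I median was -0.05 without day 28 piglets 1 and 2.

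Junction, matrix, nerve and chaperone genes had at most 2 calls a list. The called shares, all lower, were 11.8% of 17 nerve genes, 6.25% of 16 junction, 3.57% of 28 chaperone and 3.12% of 32 matrix genes. Of all probesets 1.29% were called lower. The mean signal of 12 of the 17 nerve genes was under 4. The tight junction protein CLDN3 lay between 7.74 and 8.94 (median 7.99) at day 56, against 9.10 to 9.94 (median 9.30) at day 28, a log2 fold change of -1.32 ± 0.22 (SE; adjusted p = 0.0123). The other CLDN3 probeset had a log2 fold change of -0.11 and was not called. FBLN1, a matrix protein, fell by 1.2 (adjusted p = 0.0092) with no overlap. ASCL2, a transcription factor of crypt stem cells, fell by 1.02 (adjusted p = 0.0415), and its call was lost without day 28 piglet 1, 2 or 4 or day 56 piglet 5 or 6, when the fold change went under 2. The neuropeptide GAL fell by 1.04 (adjusted p = 0.0165) at signals of 1.75 to 2.81 at day 56 and 3.16 to 3.88 at day 28, and its call was lost without day 28 piglet 3 or day 56 piglet 2, at log2 fold changes of -1.13 to -0.88 over the 12 omissions. The neuronal hydrolase UCHL1 fell by 1.58 (adjusted p = 0.0764) and the chaperone HYOU1 by 1.22 (adjusted p = 0.0986). UCHL1 lost its call without day 28 piglet 2 or 3 or day 56 piglet 1 or 5 (-1.82 to -1.26 over the 12 omissions), and HYOU1 without day 28 piglets 3, 4, 5 or 6 or day 56 piglet 1, 2 or 4 (-1.42 to -1.03). Without day 28 piglets 1 and 2 together the calls of ASCL2, GAL and UCHL1 were lost, at log2 fold changes of -0.83, -0.98 and -1.52. At the brightest probeset of each gene, smooth muscle, endothelium, goblet cell, enteroendocrine, brush border peptidase and clock genes had no call. Of 3 probesets of the vessel gene LYVE1, picked after its values were seen, 1 was called lower, with log2 fold changes from -1.49 to -0.19.

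Probesets of 1 gene did not always move alike. Besides BBX, CD163, CLDN3, ECI2, ACADVL and PLBD1, uncalled probesets stood beside a called one for TNFSF13 (-0.03), TANK (0.54), LBP (-0.42), NSDHL (-0.60), RBP4 (-0.54), SLC23A1 (-0.37), SLC46A3 (-0.58) and ARHGEF6 (0.92). The smallest change was -0.11 among 4 probesets of SLC11A2, of which 2 were called, 1.30 among 3 of CD53, 0.89 among 5 of LCP1 and 0.26 among 3 of PPARD, of which 1 each was called. LCK had an uncalled probeset at 2.19.

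Lists that follow the 2 day 28 piglets that stood apart need a separate account. The mean of 17 genes of protein uptake and lysosomes, which serve the suckling enterocyte, was 9.24 to 9.90 in day 56 piglets, and at day 28 it was 10.85 and 11.07 in piglets 1 and 2 and 8.97 to 9.41 in the other 4. None of the 17 was called, and the list median was -0.23 over all piglets and 0.15 without those 2. Without them fatty acid oxidation had 4 calls, all lower, plasma cell and IgA transport genes had 3, all higher, and T cell genes had 1. The chaperone list had 6 calls, all lower, against 1 over all piglets, and drug and steroid metabolism had 4 higher and 1 lower. Among the medians, crypt proliferation was at -0.98, against -0.23 over all piglets, and interferon-induced genes at -0.54, against 0.24.

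**Figure D3:**
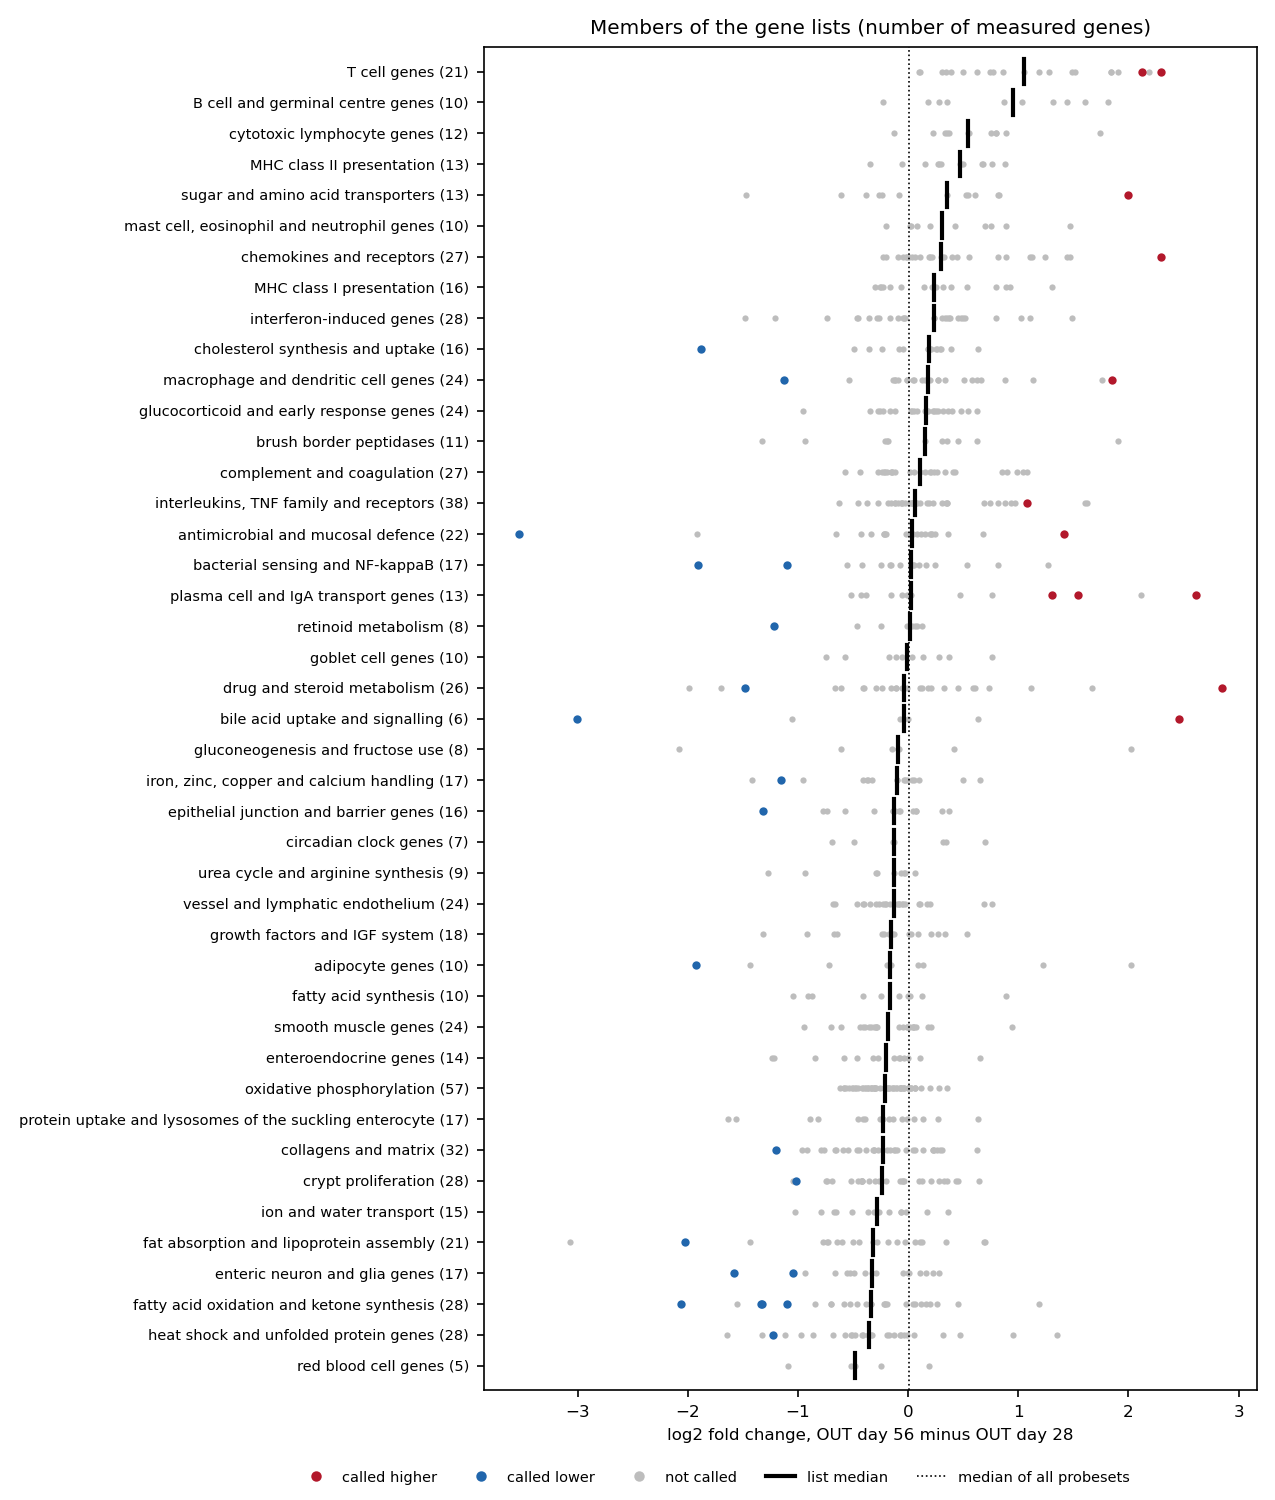
Each row is a gene list with its number of measured genes, each dot the log2 fold change of 1 member, OUT day 56 minus OUT day 28, coloured where called, and each bar the list median. T cell genes have the highest median (1.05) and lie above 0 throughout, and fatty acid oxidation has 4 members called lower.

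Levels at day 5 extend the course back to the first week of life. PIGR had a median of 2.06 at day 5, 8.37 at day 28 and 10.77 at day 56 in OUT piglets, and FABP6 one of 2.70, 11 and 13.58. SLC2A5 had medians of 4.73, 7.39 and 9.13 at the same days. The larger step of PIGR and FABP6 lay before day 28, and SLC2A5 was higher at each later day. GALK1 had medians of 8.70, 7.46 and 5.59 and GALT 7.58, 6.75 and 4.82, so both were lowest at day 56. PCDH15 had medians of 7.75, 9.89 and 3.69 and the unnamed probeset 10.70, 8.38 and 2.86. OUT piglet 3 at day 5 was an exception in several of these genes, with 2.56 for PCDH15 and 7.97 for SLPI, the lowest of its group. No test was run against day 5.

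**Figure D4:**
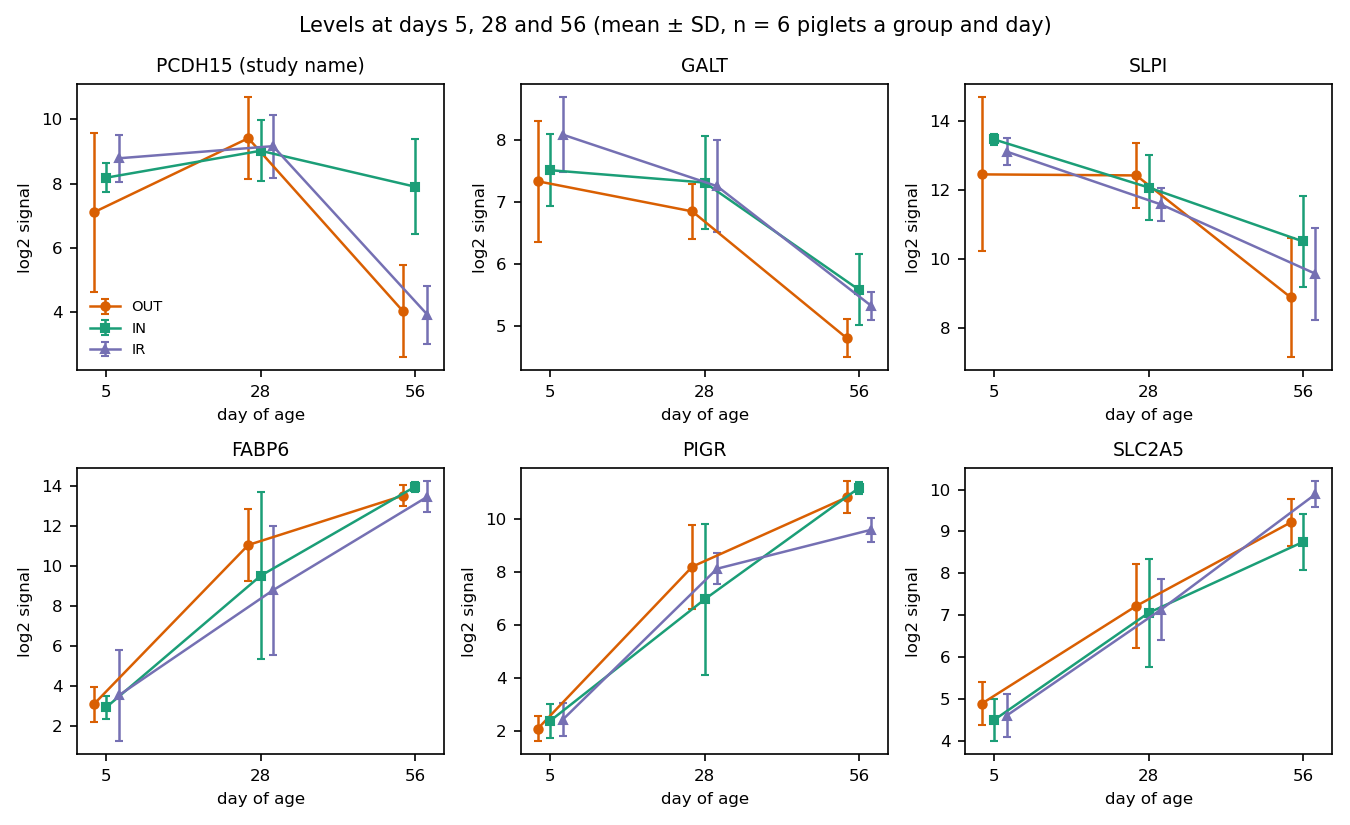
Mean ± SD of the log2 signal (n = 6 piglets a group and day) of 6 genes in OUT, IN and IR piglets at days 5, 28 and 56, with groups set slightly apart on the x axis. GALT is lowest at day 56 and PIGR, FABP6 and SLC2A5 are highest then in all 3 groups, and PCDH15 at day 56 is low in OUT and IR but not in IN.

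The same interval in IN and IR piglets showed how far these changes were shared. From day 28 to day 56 473 probesets were called in IN (1.97%), 180 of them lower (0.75%), and 718 in IR (2.99%). In IR 2090 probesets had an adjusted p under 0.05 (8.71%) and 5962 an unadjusted p under 0.05 (24.8%). Of the 628 called in OUT, 139 were called in the same direction in IN (22.1% of OUT and 29.4% of IN calls) and 226 in IR (36% of OUT and 31.5% of IR calls), and none was called in the opposite direction. Whether called or not, 579 of the 628 had the same sign in IN (92.2%, against 64.1% of all probesets). In IR 607 did (96.7%, against 70.5% of all probesets). GALT had a log2 fold change of -2.04 in OUT, -1.73 in IN and -1.93 in IR, GALK1 one of -1.83, -1.30 and -2.05, and SLC2A5 one of 1.99, 1.69 and 2.75, and all of these were called. SLC46A1, PLBD1 and EPHX2 were likewise called in all 3 groups in the same direction.

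The difference between the OUT change and the change in another group was tested in its own right, and no difference reached an adjusted p under 0.05. For OUT minus IN 172 probesets were called (0.717%), 131 of them below 0 (0.546%), with a lowest adjusted p of 0.616 and 1730 at an unadjusted limma p under 0.05 (7.21%). For OUT minus IR 124 were called (0.517%), with a lowest adjusted p of 0.79 and 1277 at an unadjusted p under 0.05 (5.32%). Both tests share the OUT piglets. These counts moved by more than 1.5 times when single OUT piglets were left out. OUT minus IN gave 106 calls without day 56 piglet 2 and 261 without day 56 piglet 3, and OUT minus IR gave 78 without day 28 piglet 1, 190 without day 28 piglet 6, 248 without day 56 piglet 1 and 72 without day 56 piglet 5.

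The called differences against IN included PCDH15. The change of PCDH15 was -5.36 in OUT and -1.12 in IN, a difference of -4.25. PLIN2 had changes of -2.03 in OUT and 0.01 in IN, SLC25A20 of -1.33 and 0.31, CPT1A of -1.1 and 0.54, and ECI2 of -2.06 and -0.62, and all 4 differences were called. PCDH15 and these 4 genes were named for their fall in the same OUT piglets, so their differences are no independent evidence. The rule also named OGDH, the core of the oxoglutarate dehydrogenase complex, with changes of -0.37 in OUT and 0.85 in IN, the splicing factor ESRP1 with -0.57 and 0.88, and UTP14A with 0.45 and -0.77. OVOL1, an epithelial transcription factor, had -1.06 in OUT and 0.59 in IN. The OUT call of OVOL1 was lost without day 28 piglet 2, 3, 4 or 5 or day 56 piglet 2, 4, 5 or 6, at -1.25 to -0.91 over the 12 omissions, and without day 28 piglets 1 and 2, with an unadjusted limma p of 0.0168.

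The called differences against IR included LOC396781 and IGHA2. LOC396781 had changes of 3.42 in OUT and -0.24 in IR, a difference of 3.66, IGHA2 one of 1.51 in OUT and -0.01 in IR, and PLEK one of 1.49 and -0.13. LOC396781 and PLEK were named for their rise in the same OUT piglets, and IGHA2 was picked outside the rule. Their differences are therefore no independent evidence. The monocyte chemokine CCL2 had log2 fold changes of 0.31 in OUT and -2.35 in IR, a difference of 2.65, and SRGN, a proteoglycan of leukocyte granules, of 0.79 and -0.31. The SRGN difference fell short of a call without day 28 piglets 1 and 2, at 0.98, and CCL2 in OUT then stood at -0.14. The zinc importer SLC39A4 had log2 fold changes of 0.10 in OUT and 2.09 in IR and AKR1CL1 of -1.40 and 2.16, so that both differences lay below 0. AKR1CL1 in OUT stood at -0.84 without day 28 piglets 1 and 2.

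**Figure D5:**
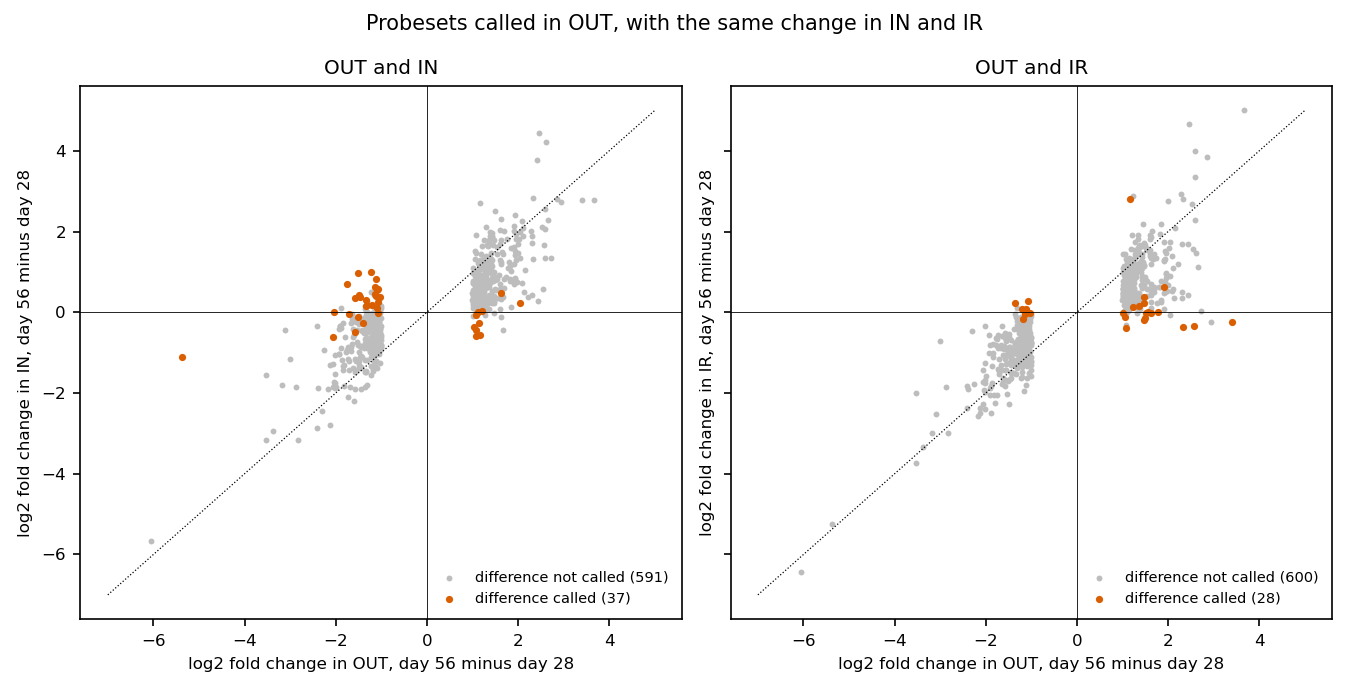
The 628 probesets called in OUT, with the log2 fold change from day 28 to day 56 in OUT on the x axis and in IN (left) or IR (right) on the y axis, and a dotted line of equal change. The difference was called (orange) for 37 probesets against IN and 28 against IR, none of them with an adjusted p under 0.05.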

How the data were processed

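RNA from 54 ileal samples, 1 array a piglet, was measured on the GeneChip Porcine Genome Array. The authors scanned the arrays with GCOS 1.2 and normalized them by gcRMA, and the deposited values are log2 signals, used as deposited. The table holds 24123 probesets. After removal of 124 controls 23999 probesets were tested, without a filter on dim signals. The platform annotation names 10069 probesets with 1 symbol (6765 different symbols), 198 with several and 13732 with none. Another 132 have a name only in the study's own annotation and are marked as such, and nothing is named from a probeset with several symbols. Arrays give no counts, so precision is limited by their number.

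The 6 OUT arrays of day 56 and the 6 of day 28 were fitted with limma 3.58.1 in R 4.3.3, with no block. The study blocked by run (3 runs of 2 piglets a group), but no label names it. A call needs p under 0.01 before adjustment and at least a doubling or halving. P-values measure the spread between these piglets. Exact permutation p-values over 924 splits of 12 piglets cannot go below 0.00216. The differences between groups were fitted over the arrays of both groups and days. The code was tested on simulated data. Figures used matplotlib 3.10.9 in Python 3.11.15.

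Gene lists take each gene at its brightest probeset with 1 symbol. Of 45 lists 43 had at least 3 measured genes. The members and lists were chosen with earlier results of these data known. Named by rule were the 20 largest rises and 20 largest falls among called genes, the 4 or fewer members of every list that had the smallest p, and the 8 genes with the smallest p among called differences in each of the 2 tests between groups. Other genes are marked in the report as picked after their values were seen, or by the study's name. The stability and far-sample counts cover all genes of the rule and all genes picked outside it, whether or not the report describes them. Some genes are not reported here.

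Label numbers were checked for pairing. Of 6 same-number pairs 2 had deviations from the day mean that correlated above 0.1, so numbers were not taken to pair piglets. Alternatives were other sets of arrays in the fit, blocks by label number, a filter on dim probesets (log2 value of 4 in at least 6 arrays), robust fitting with an intensity trend, array weights, a second quantile normalization, centring on array medians, adjusted p-values, and each OUT piglet left out in turn. The omission of day 28 piglets 1 and 2 together was added after seeing the data.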

Additional observations from a re-analysis of the deposited data

Results flagged for a closer look

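Over the 253 named probesets, 506 groups of 6 piglets were checked for a piglet far from the others, by the share of the group's range that lies between it and its nearest neighbour. In 42 groups that share was above Dixon's critical value, with 25 piglets far above and 17 far below the rest. Chance flags about 1 in 20 groups, and genes are not independent.

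Among OUT day 56 piglets, the genes and shares were these. Day 56 piglet 1 was far above the others in GLYCTK (0.777), CEBPA (0.666), PCK2 (0.674), RACK1 (0.836) and far below them in CCL2 (0.699). Day 56 piglet 2 was far below the others in TKFC (0.651), SLC25A1 (0.695), AQP3 (0.643), MYOCD (0.673), GAL (0.782), RHOF (0.699), PEMT (0.669). Day 56 piglet 3 was far above the others in PCDH15 (0.687). Day 56 piglet 4 was far above the others in ATP2B1 (0.656). Day 56 piglet 5 was far above the others in the T cell receptor alpha probeset (0.771) and far below them in INSIG2 (0.714), CFTR (0.681), POFUT1 (0.697). Day 56 piglet 6 was far above the others in MCT7 (0.745), SELE (0.806), ALAS2 (0.668), CRY2 (0.703).

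Among OUT day 28 piglets, the genes and shares were these. Day 28 piglet 1 was far above the others in LBP (0.704), NR1I2 (0.688), MYOCD (0.739), HBM (0.63), CRY2 (0.636). Day 28 piglet 2 was far above the others in SLC6A14 (0.629). Day 28 piglet 3 was far below the others in ASS1 (0.816), GATA3 (0.7), GSDMD (0.626). Day 28 piglet 4 was far above the others in KCNQ1 (0.679), COPS7A (0.736). Day 28 piglet 5 was far below the others in HBE1 (0.757). Day 28 piglet 6 was far above the others in AFF3 (0.717), MCM5 (0.811), BTK (0.836), CD40 (0.735), IL4 (0.694), TNF (0.709) and far below them in BBX (0.648), GPX7 (0.651).

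The change from day 28 to day 56 differed between OUT and IN in 22 named probesets at the unadjusted limma p and fold change of a call, and in none at an adjusted p under 0.05. The difference, OUT minus IN on the log2 scale, was above 0 for UTP14A (1.22). It was below 0 for PCDH15 (-4.25), HYAL1 (-2.46), HYOU1 (-2.23), PLIN2 (-2.04), SLC25A20 (-1.64), OVOL1 (-1.64), CPT1A (-1.64), SLC23A1 (-1.5), ECI2 (-1.45), ESRP1 (-1.45), FBLN1 (-1.38), RHOF (-1.29), PCSK7 (-1.24), OGDH (-1.22), MMP1 (-1.21), HSP90B1 (-1.14), VNN2 (-1.14), COPS7A (-1.14), PLIN3 (-1.13), SLC25A1 (-1.13), AQP11 (-1.02).

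The change from day 28 to day 56 differed between OUT and IR in 18 named probesets at the unadjusted limma p and fold change of a call, and in none at an adjusted p under 0.05. The difference, OUT minus IR on the log2 scale, was above 0 for LOC396781 (3.66), the T cell receptor alpha probeset (2.70), CCL2 (2.65), FCGR2B (2.13), SLA-6 (1.79), LOC100152327 (1.66), PLEK (1.63), IGHA2 (1.52), SLA-8 (1.41), ANKRD44 (1.26), SRGN (1.1), BBX (1.1), CXCL2 (1.01). It was below 0 for AKR1CL1 (-3.55), SLC39A4 (-1.98), ABCB6 (-1.54), DBP (-1.17), FOXRED1 (-1.1).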

How the results depend on the processing

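The count of 628 called probesets stayed within 1.5 times under every alternative but 1. It was 735 with all 9 groups in 1 fit, 607 with OUT and IN together, 606 without dim probesets, 614 after renewed quantile normalization, 651 after median centring, 851 with array weights, 674 with an intensity trend and robust fitting, 794 at an adjusted p under 0.05 and 877 without day 28 piglets 1 and 2. It was 370 when an adjusted p under 0.05 was required together with a doubling or halving. With a replicate block by label number 725 were called, and 774 with the numbers blocked in twos, and 2 of 6 arrays at day 56 correlated best with their own number. Leaving out 1 OUT piglet at a time gave 471 to 799. OUT minus IN, 172 calls, became 301 with all 9 groups in 1 fit, 106 to 261 with 1 OUT piglet left out, 400 without day 28 piglets 1 and 2, and 0 at an adjusted p under 0.05. OUT minus IR, 124 calls, became 78, 72 to 248, 81 and 0 in the same order. With the numbers blocked in twos and the unnumbered arrays left out they were 155 and 167. Of 105 called probesets among the 253 named, 8 to 17 lost the call when 1 OUT piglet was left out, 7 with the block by number, 2 with the block in twos, 12 with array weights and 30 without day 28 piglets 1 and 2, and no called direction was reversed. Of the 148 not called, CCL2 had a log2 fold change of -0.14 without day 28 piglets 1 and 2, against 0.31 over all, and SLC39A4 had -0.12 without day 56 piglet 6 and up to 0.28 without another piglet, against 0.10 over all. The causes were not tested. Of 472 list medians under other settings 463 stayed within 1 SD between piglets. The 9 that moved further include the T cell list (1.84 without dim probesets) and the cholesterol list (-0.53 without day 28 piglets 1 and 2). Low signals limit GAL, SLC23A1, TAS1R3, PCDH15 and the unnamed probeset with the steepest fall. Signals near or under a log2 value of 4 also limit the size of change of other genes. Among these are DIO1 and SLC46A1, dim at day 56, and EPHX2, CD53 and TNFRSF17, dim at day 28.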
